A study of Homo sapiens with 11 samples.

Results

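The AP-1 and immediate early transcription factors were followed through vorinostat treatment of neuroblastoma cells. The group held 10 genes, chosen by name: FOS, FOSB, FOSL2, JUN, JUNB, JUND, EGR1, EGR3, IER2 and IER5. They had 11 of the 48107 probes on the array. RNA came from SK-N-BE(2)-C, a human neuroblastoma cell line with amplified MYCN, and was hybridized to 11 Illumina HT-12 v4 BeadChip arrays. Cells exposed for 24 h to 500 nM vorinostat, an inhibitor of histone deacetylases, gave 3 arrays, and their controls in DMSO, its solvent, gave another 3. At 6 d there were 3 arrays with DMSO and 2 with vorinostat at the same dose. All cells came from 1 line, and the methods describe independent experiments for 24 h and say nothing of them for 6 d, so that p-values at 6 d measure the spread between arrays.

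AP-1 is a dimer that JUN proteins form with each other or with FOS proteins, and that binds a short DNA element in enhancers and promoters. FOS, FOSB, JUN, JUNB, EGR1, EGR3, IER2 and IER5 are immediate early genes, whose transcription starts within minutes of a growth factor, calcium or stress signal without new protein synthesis, and mostly ends soon after. MAP kinases pass these signals to factors already sitting on the promoters, such as SRF with its ELK partners and CREB. JUND and FOSL2 differ from most of the group in being expressed more steadily.

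Of the 10 members, 8 were measurable in at least 1 group and 3 were called in a comparison of vorinostat with DMSO. At 24 h 2 of the 8 were called higher, where 16.5% of all tested genes were called higher and 11.1% lower. At 6 d 1 was called higher, against 3.93% higher and 6.92% lower over all genes. EGR1 was 2.92-fold higher with vorinostat at 24 h and JUN was 1.87-fold higher at 6 d. The call of FOS at 24 h (at least 1.35-fold higher) rested on a probe close to background that only the vorinostat arrays of 24 h carried past the detection filter, and it was lost when any one of the 24 h arrays was left out. FOSB and EGR3 were detected on no array. The promoters of EGR1, JUN and FOS are shown because immediate early genes are known to be switched on through short elements near their start. Each run is the 250 bases before the transcription start in RefSeq (GRCh38.p14), 5′ to 3′ on the gene's strand: chr5:138465229-138465478 on the plus strand for EGR1, chr1:58784048-58784297 on the minus strand for JUN and chr14:75278578-75278827 on the plus strand for FOS. Capitals mark matches on either strand to the CArG box (the core of the serum response element that SRF binds), TGACGT (the core of the cAMP response element), TGACATCA (the AP-1-like site of the JUN promoter), TGANTCA (the AP-1 element) and GCGNGGGCG (the EGR element).
EGR1: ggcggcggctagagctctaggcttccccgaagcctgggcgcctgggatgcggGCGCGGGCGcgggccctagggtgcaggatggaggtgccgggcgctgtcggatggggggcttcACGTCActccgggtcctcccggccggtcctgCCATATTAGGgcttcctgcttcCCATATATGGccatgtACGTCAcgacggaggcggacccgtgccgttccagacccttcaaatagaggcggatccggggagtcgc
JUN: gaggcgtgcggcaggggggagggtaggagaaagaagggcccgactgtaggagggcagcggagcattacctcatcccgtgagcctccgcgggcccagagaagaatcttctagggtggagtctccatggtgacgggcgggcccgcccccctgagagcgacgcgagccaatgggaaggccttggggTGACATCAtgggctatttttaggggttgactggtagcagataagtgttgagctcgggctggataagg
FOS: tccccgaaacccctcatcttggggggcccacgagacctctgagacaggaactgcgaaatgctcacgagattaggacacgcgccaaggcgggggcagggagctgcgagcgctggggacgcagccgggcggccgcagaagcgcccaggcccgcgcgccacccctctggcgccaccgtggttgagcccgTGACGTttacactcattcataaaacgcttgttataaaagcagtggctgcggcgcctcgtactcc
EGR1 held 2 CArG boxes, from 105 to 96 and from 83 to 74 bases before the start. It also held 2 copies of TGACGT on the opposite strand and 1 EGR element. In JUN the only match was TGACATCA, from 67 to 60 bases before the start. In FOS it was TGACGT, from 64 to 59 bases before the start. A promoter was found for 9 of the 10 members. TGACGT lay in 5 of these 9 (FOS, FOSB, FOSL2, JUND and EGR1) and in 7.1% of 35116 promoters of the same length. Within these 250 bases a CArG box was in EGR1 alone among the 9 and in 1.16% of all promoters. Bases farther upstream were not searched, so a window without a match does not show that the gene lacks the element. TGACATCA was in JUN alone and in 2.37% of all, and the EGR element was in EGR1 alone and in 8.41%. TGANTCA matched in 0 of the 9 windows and in 6.57% of all. A match describes these letters only, and no binding was measured.

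Before any normalization the arrays differed in brightness along with the groups. The mean intensity was 272 to 302 with DMSO and 401 to 413 with vorinostat at 24 h, and 323 to 383 with DMSO and 283 and 338 with vorinostat at 6 d. The BeadChip of each array was inferred from the number that ends its name. At 24 h the groups lay on different BeadChips, so that chip and treatment cannot be told apart there. The groups at 6 d shared 1 chip, and comparisons between the times are also between chips. The first principal component of all tested genes (37.2% of the variance) separated the DMSO arrays of 24 h and the vorinostat arrays of 6 d from the rest. All 8 noradrenergic neuroblastoma markers with a probe, among them DBH, TH, HAND2 and MYCN, were detected on all 11 arrays. Of markers of other cells, the endothelial PECAM1, CDH5 and VWF, the leukocyte CD3E and LYZ, the epithelial CDH1 and the fibroblast COL1A2 were detected on none, while CD14 (leukocyte), KRT19 (epithelial), TWIST1 and PDGFRB (mesenchymal) were detected on all 11. PTPRC, EPCAM, KRT8, KRT18, COL1A1, COL3A1, FN1 and PRRX1 were detected on some. Levels below are log2 intensities after background correction and quantile normalization, and lower bounds of folds are on this scale, on which genes near the background change more than on the uncorrected one. Detection of a probe required a detection p under 0.01 together with an intensity over its array's background, and a gene was tested where all arrays of at least 1 group detected it. Calls are adjusted p-values under 0.05 from limma, over 10323 genes. In bulk RNA, a change in all cells and a change in the share of cells that express a gene cannot be told apart.

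**Figure D1:**
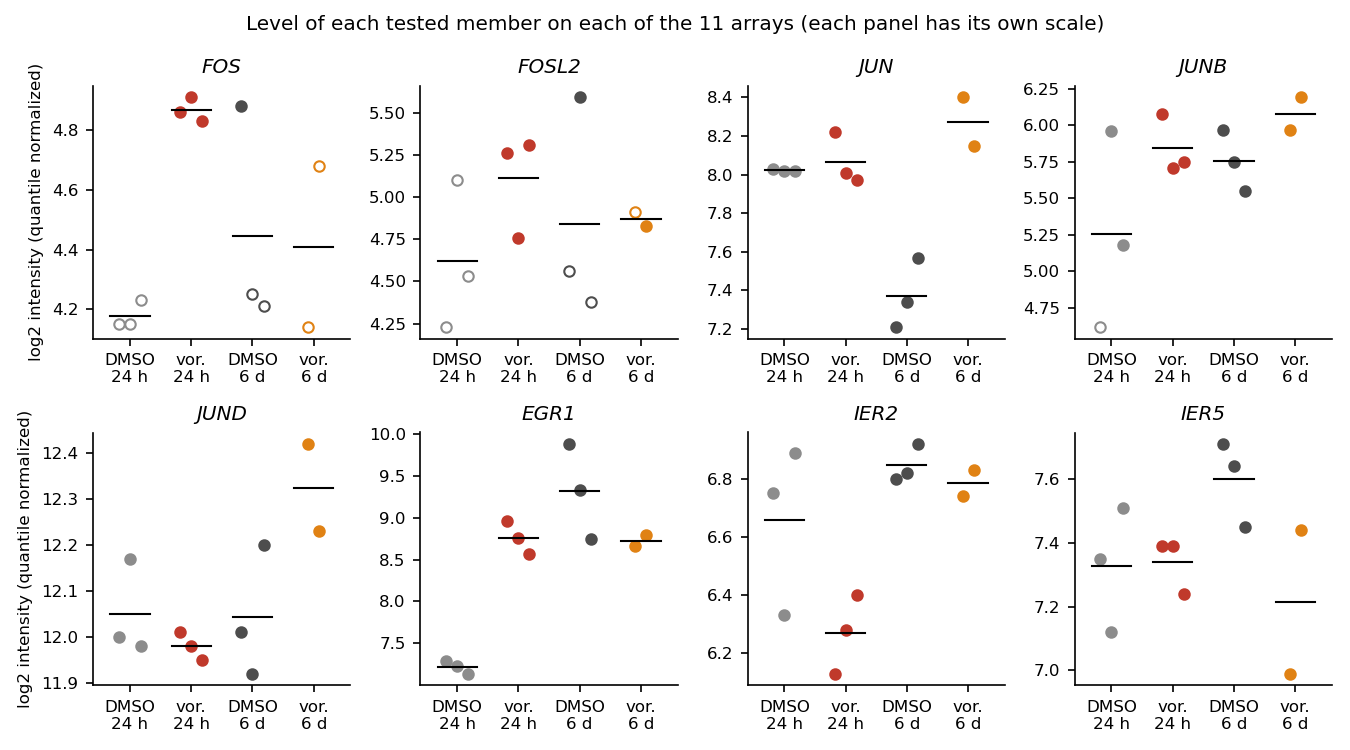
Log2 intensity (y axis, quantile normalized) of the 8 tested members on each of the 11 arrays, with a panel and a scale for each gene. Points are arrays (filled where the probe was detected, open where it was not) and lines are group means. The 3 EGR1 points with DMSO at 24 h lie between 7.14 and 7.29, below all others, and the JUN points with DMSO at 6 d lie between 7.21 and 7.57, below all others.

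Vorinostat for 24 h was compared with DMSO for the same time. Of the 8 members tested, 2 were called higher (FOS and EGR1) and 0 lower, while 16.5% of all tested genes were called higher and 11.1% lower. With an unadjusted p under 0.05, JUNB (0.0452, higher) and IER2 (0.0424, lower) would be added. The median log2 change of the members was 0.27, or 0.24 with FOS and FOSL2 at their lower bounds, against 0.04 over all genes. Both FOS and FOSL2 passed the detection filter through the vorinostat arrays at 24 h alone. The arrays of both groups did not overlap for 2 of the 8 members and for 46.4% of all genes, in either direction.

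EGR1, a zinc finger factor induced by growth factor and stress signals, had the largest change among the members at 24 h. Its level was 7.29, 7.23 and 7.14 on the DMSO arrays and 8.96, 8.76 and 8.57 on the vorinostat arrays. Every vorinostat array lay above every DMSO array. The means were 7.22 ± 0.0743 (SD, n = 3) and 8.77 ± 0.195 (SD, n = 3), a log2 change of 1.54 (SE 0.20, limma adjusted p = 5.66e-05). The scanner intensities from which these levels were made were 186 to 210 with DMSO and 577 to 757 with vorinostat. In the table that the authors normalized, the EGR1 probe read 236 to 253 with DMSO and 510 to 645 with vorinostat. The call was kept in all 25 alternative settings, with log2 changes from 1.15 to 2.31.

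FOS, the partner with which JUN forms the classical AP-1 dimer, was close to background. Its intensities were 89.8, 91.7 and 98 with DMSO, where 0 of 3 arrays detected it, and 118, 119 and 115 with vorinostat, where all 3 did. The background of the 24 h arrays was 99.3 to 101. On the log2 scale the fitted change was 0.69, against 0.29 without background correction. FOS passed the detection filter through the vorinostat arrays at 24 h alone, and had only an upper bound with DMSO. Against that bound it was at least 1.35-fold higher with vorinostat (limma adjusted p = 0.048). A block for the replicate number took this call away (adjusted p = 0.0563), as it was also lost when any one of the 6 arrays at 24 h was left out. When arrays were scaled by the median of detected probes the FOS change was −0.04 on the log2 scale, in the opposite direction, and over all 24 settings the adjusted p ran from 0.00652 to 0.926.

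The other FOS and JUN genes were not called at 24 h. FOSL2, which codes for FRA2, was detected on 0 of 3 DMSO and 3 of 3 vorinostat arrays, with intensities of 96.3 to 119 and 115 to 130 that overlapped (limma adjusted p = 0.258). JUN was 8.03, 8.02 and 8.02 with DMSO and 8.22, 8.01 and 7.97 with vorinostat, a log2 difference of 0.04 (SE 0.14, adjusted p = 0.844). Its scanner intensity was 256 to 302 with DMSO and 407 to 480 with vorinostat, before the arrays were normalized. JUNB, a JUN protein that can oppose JUN on some targets, was 4.62, 5.96 and 5.18 with DMSO and 6.08, 5.71 and 5.75 with vorinostat. The JUNB groups overlapped through DMSO replicate 2 (log2 difference 0.59, SE 0.27, adjusted p = 0.119), and without that array JUNB passed the test. JUND was between 11.95 and 12.17 on all 6 arrays, and the log2 difference was −0.07 (SE 0.09).

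The immediate early response genes IER2 and IER5 were measured on every array. IER2 had 6.75, 6.33 and 6.89 with DMSO and 6.13, 6.28 and 6.40 with vorinostat, a log2 difference of −0.39 (SE 0.18, limma adjusted p = 0.114). The IER2 groups again overlapped through DMSO replicate 2, and IER2 was called lower without it. IER5 did not separate the groups, with 7.12 to 7.51 for DMSO and 7.24 to 7.39 for vorinostat. FOSB, a FOS protein, had intensities of 87.6 to 104 over the 11 arrays. EGR3, a relative of EGR1, had 83.6 to 98 on one of its probes and 94.2 to 114 on the other. Both genes stayed untested, since no array detected them.

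**Figure D2:**
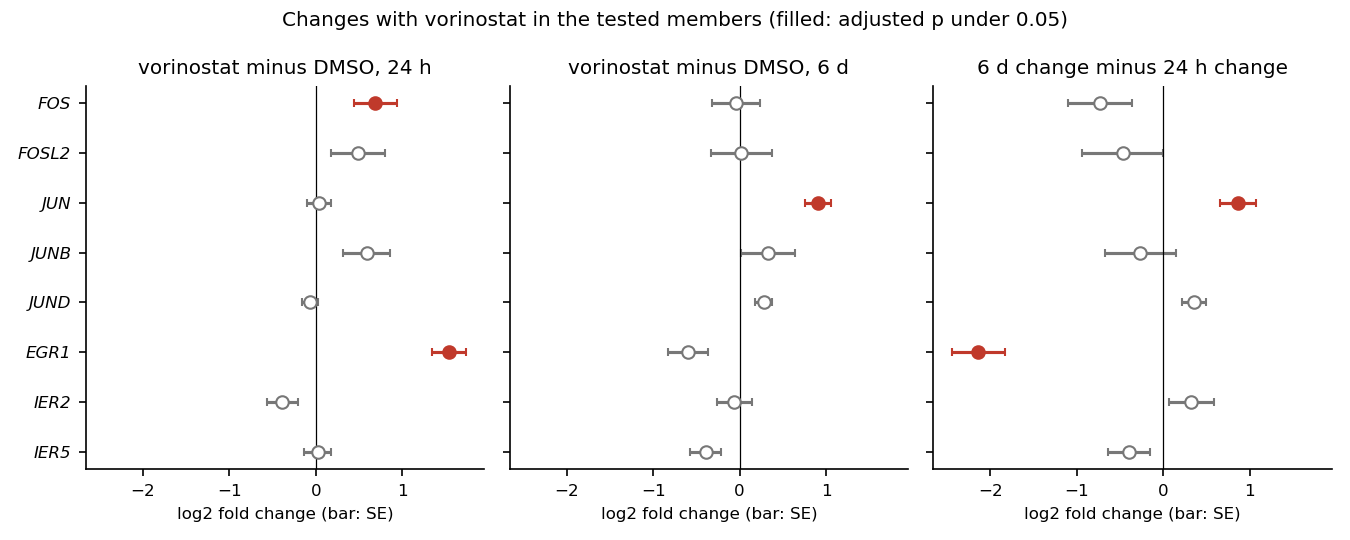
Log2 fold change (x axis) of the 8 tested members for vorinostat against DMSO after 24 h, after 6 d, and for the change after 6 d minus that after 24 h. Points are fitted changes with their SE as bars, filled where the adjusted p was under 0.05. EGR1 was 1.54 higher at 24 h and JUN 0.91 higher at 6 d, and both differed between the times, while FOS at 24 h stands on a probe that DMSO arrays did not detect.

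At 6 d, vorinostat was compared with DMSO on 1 chip. JUN alone was called among the 8 members, with 1 higher and 0 lower, while 3.93% of all tested genes were called higher and 6.92% lower. The median log2 change of the members was −0.01 and that of all genes −0.02. The groups did not overlap for 4 of the 8 members (JUN, JUNB and JUND higher, IER5 lower, JUNB by less than the rounding of the levels given here) and for 38.6% of all genes.

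JUN, the founding member of AP-1, had levels of 7.21, 7.34 and 7.57 with DMSO and of 8.40 and 8.15 with vorinostat at this time. Both vorinostat arrays lay above all DMSO arrays. The means were 7.37 ± 0.182 (SD, n = 3) and 8.28 ± 0.178 (SD, n = 2), a log2 change of 0.91 (SE 0.15, limma adjusted p = 0.0018). The scanner intensities were 250 to 276 with DMSO and 314 and 347 with vorinostat, where the mean over all probes was 323 to 383 and 283 and 338. In the table normalized by the authors, JUN read 252 to 297 and 463 and 402. The call was kept without each array in turn. It was lost under 2 of 25 settings, the scaling by medians over all probes and the methods' test per gene (adjusted p = 0.265). At 6 d the methods' test called 0 of 10323 genes in either direction.

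JUND, the JUN protein that restrains proliferation in several cell types, was 12.01, 11.92 and 12.20 with DMSO and 12.42 and 12.23 with vorinostat at 6 d. The JUND groups did not overlap, and the log2 difference of 0.28 (SE 0.10, limma adjusted p = 0.0883) was not called. JUNB was 5.55 to 5.97 with DMSO and 5.97 and 6.19 with vorinostat (adjusted p = 0.542). EGR1 had 9.88, 9.33 and 8.74 with DMSO and 8.66 and 8.79 with vorinostat, and DMSO replicate 3 lay within the vorinostat arrays. The EGR1 difference was −0.60 (SE 0.23, adjusted p = 0.104), and it was −0.32 without DMSO replicate 1. Without DMSO replicate 3, 3 members were called at 6 d: JUN, JUND (0.36, adjusted p = 0.0285) and EGR1 (−0.89, adjusted p = 0.00497). IER5 read 7.71, 7.64 and 7.45 with DMSO and 6.99 and 7.44 with vorinostat (−0.39, SE 0.18, adjusted p = 0.182). IER2 lay between 6.74 and 6.92 on all 5 arrays. FOS was detected on 1 of 3 DMSO and 0 of 2 vorinostat arrays, and FOSL2 on 1 of 3 and 1 of 2.

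The vorinostat change differed between the times for 2 of the 8 members in a test of the difference itself. JUN was called higher (0.86, SE 0.21, limma adjusted p = 0.00484) and EGR1 lower (−2.14, SE 0.31, adjusted p = 9.25e-05). Over all genes 12.2% were called higher and 18.6% lower in this test, so that neither direction was rare. The EGR1 difference was called under all 23 settings that gave a value. For JUN the difference was called under 22 of 23, and reversed to −0.25 with medians over all probes. The times also differ in chip, which cannot be told apart from time here.

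In EGR1 and JUN the DMSO arrays also differed between the times. EGR1 was 4.28-fold higher with DMSO at 6 d than with DMSO at 24 h (log2 change 2.10, SE 0.20, limma adjusted p = 3.19e-06), whereas with vorinostat the difference was −0.04 (SE 0.23, adjusted p = 0.92). By mean level the EGR1 groups ran from DMSO at 24 h (7.22) through vorinostat at 6 d (8.72) and vorinostat at 24 h (8.77) to DMSO at 6 d (9.32). The DMSO arrays at 24 h lay below all others, and the ranges of the 3 other groups overlapped (8.66 to 8.79, 8.57 to 8.96 and 8.74 to 9.88). JUN with DMSO fell by 0.65 on the log2 scale from 24 h to 6 d (SE 0.14, adjusted p = 0.00211), and with vorinostat the difference was 0.21 (SE 0.15, adjusted p = 0.369). The JUN groups ran from DMSO at 6 d (7.37) to DMSO at 24 h (8.02), vorinostat at 24 h (8.07) and vorinostat at 6 d (8.28), and the ranges of neighbours among the last 3 overlapped. With DMSO, 17.1% of all genes were called higher at 6 d and 13% lower, against 1 member higher and 1 lower. With vorinostat, 7.45% were called higher and 12.2% lower, against 1 member higher and 0 lower. That member was JUND (0.34, SE 0.10, adjusted p = 0.0263), and its call was lost in 8 of 24 settings, among them leaving out any one of the vorinostat arrays at 24 h or replicate 2 at 6 d. The comparisons between the times share their arrays with those within a time and are no separate evidence.

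The summed level of 7 fibroblast or mesenchymal markers, added on the unlogged scale and made up mostly of TWIST1 and PDGFRB, moved along with EGR1. It was 1860 to 2180 with DMSO at 24 h, 2520 to 3120 with vorinostat at 24 h, 3200 to 4040 with DMSO at 6 d and 2510 to 2720 with vorinostat at 6 d. Only TWIST1 and PDGFRB of these markers were detected on every array, and COL1A2 on none. The summed level of 4 leukocyte markers, of which CD14 alone was detected on every array, ran the same way, with group ranges of 42.5 to 73.4, 76 to 103, 103 to 154 and 73.7 to 104. CD14 differed by 0.55 at 24 h (limma adjusted p = 0.0551) and by −1.10 between the times (adjusted p = 0.0125). The sum of 5 epithelial markers did not follow EGR1 (112 to 141, 99.3 to 131, 82.7 to 87.9 and 54.9 to 87.5). Nor did that of 8 noradrenergic markers (28700 to 31300, 32700 to 33500, 28900 to 30500 and 30600 to 31700). Of these 8, TH (−1.04) and DBH (−0.49) were called lower at 24 h and 1, GATA2 (0.56), higher. The part of these markers in the EGR1 result was not tested.

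**Figure D3:**
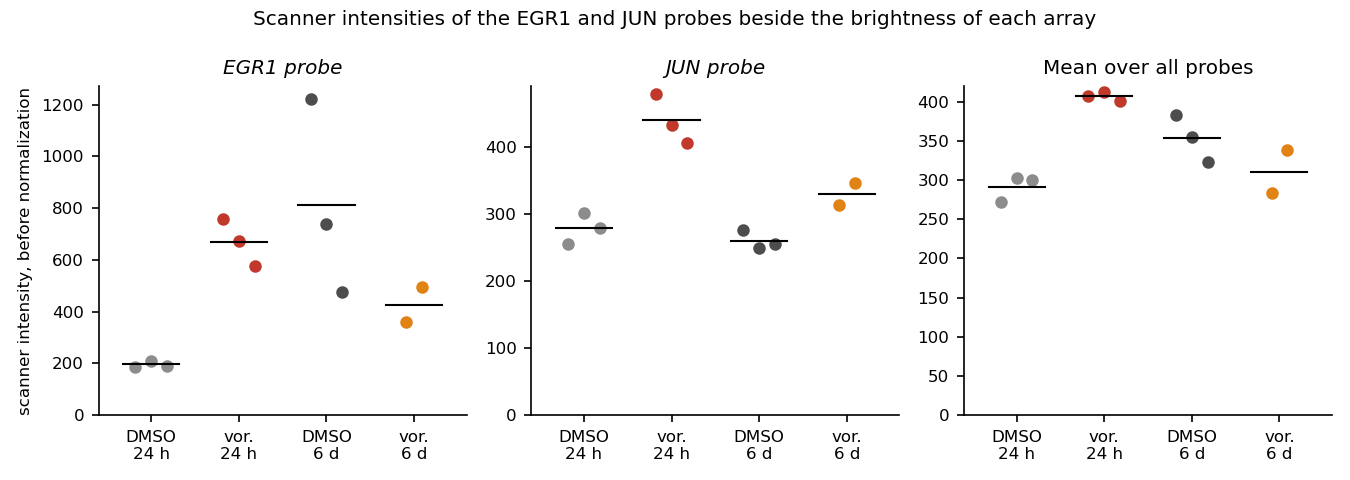
Scanner intensity before normalization (y axis, from 0) of the EGR1 probe, the JUN probe and the mean over all probes on each of the 11 arrays, with lines for group means. EGR1 was 186 to 210 on the DMSO arrays at 24 h, where the arrays were also among the dimmest, and JUN at 6 d was 314 and 347 with vorinostat against 250 to 276 with DMSO.

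EGR1 had the widest range of group means among the members detected on every array, 2.10 on the log2 scale. The 5 tested genes with the most similar pattern over the 11 arrays were C7, a complement component (Pearson r = 0.978), VASH1, an inhibitor of angiogenesis (0.945), PTPRF, a receptor tyrosine phosphatase (0.944), NCAM2, a neural adhesion molecule (0.941), and PNCK, a calmodulin-dependent kinase (0.94). The arrays share chips and brightness, and these values are a description. PTPRF averaged 7.18, 8.55, 8.90 and 8.28 in DMSO and vorinostat at 24 h and DMSO and vorinostat at 6 d. NCAM2 averaged 5.89, 7.45, 7.38 and 7.04 in the same order. C7, VASH1 and PNCK were detected on 0 of 3 DMSO arrays at 24 h and on all arrays of the other groups.

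Genes around the members were read from lists by role, and the plot of the 6 lists gives each gene. Their counts stand against 16.5% of all genes called higher and 11.1% lower at 24 h, and 3.93% and 6.92% at 6 d. Among 8 other AP-1 family genes, 4 were tested, 2 were higher at 24 h, and 0 were called at 6 d. BATF3, which pairs with JUN proteins, was at least 2.29-fold higher at 24 h (limma adjusted p = 0.00142), with DMSO arrays below detection and a fitted log2 change of 1.25 that was 0.39 without background correction. ATF2, which binds as a dimer with JUN, was at least 1.7-fold higher (adjusted p = 0.0451), and this call was lost in 13 of 24 settings, among them no background correction (0.25, adjusted p = 0.0526). BATF3 and ATF2 passed the detection filter through the vorinostat arrays at 24 h and the DMSO arrays at 6 d, where they were high. No DMSO array at 24 h detected them. A further gene of the 4, called at neither time, passed through the same groups. The median log2 change of the 4 genes was 0.41 at 24 h, or 0.39 with bounds, and −0.60 at 6 d. The filter itself favours these directions in most of the list, so the medians are a description only.

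Among 24 other immediate early genes, 14 were tested. At 24 h 3 were higher and 1 lower, with a median of 0.10, and at 6 d 1 was higher and 1 lower, with a median of −0.07. IER3, an immediate early gene tied to cell survival, was 3.34-fold higher at 24 h (4.81 to 6.55 in mean log2 level, limma adjusted p = 0.000106), and this call was kept in all 24 settings. The log2 change of IER3 was 1.74, but 0.66 without background correction and 0.73 in the authors' table, and 2 of 3 DMSO arrays detected it. IER3, like EGR1, had a higher mean with DMSO at 6 d (6.34) than at 24 h. SGK1, a serum and glucocorticoid induced kinase, was 1.63-fold higher at 24 h (adjusted p = 0.00822), a call lost without vorinostat replicate 1 (and with the methods' test). RHOB, a small GTPase induced by stress, was 1.31-fold higher at 24 h (adjusted p = 0.0346) and 1.51-fold higher at 6 d (adjusted p = 0.0143), and 8 and 7 of 25 settings lost these calls. PPP1R15A, which directs dephosphorylation of eIF2α, was 1.49-fold lower at 6 d (adjusted p = 0.049), a call lost in 15 of 25 settings.

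Of 23 MAP kinases and kinases upstream, 16 were tested, with 0 higher and 1 lower at 24 h and 0 higher and 2 lower at 6 d. The medians were 0.13 and −0.09. The number called at 24 h rose to 12 with arrays scaled by medians of all probes, where 6961 of all 10323 genes were called higher and 60 lower. RPS6KA4, the kinase MSK2 that phosphorylates histone H3 and CREB, was 1.5-fold lower at 24 h (limma adjusted p = 0.0258), and 7 of 25 settings lost this call. With the replicate number as a block, 3 of these genes were called at 24 h (MAPK3, RPS6KA4 and RPS6KA5). MAPK10, which codes for JNK3, was 1.79-fold lower at 6 d (adjusted p = 0.0394), and MAP2K3, a kinase of p38, was 1.76-fold lower (adjusted p = 0.0493). Those calls were lost in 15 of 24 and 16 of 25 settings. With the mean of its detected probes the MAP2K3 change at 6 d was −0.19 (limma adjusted p = 0.632), so its probes did not change alike. Without background correction the log2 changes were −0.30 in place of −0.59 for RPS6KA4, −0.27 in place of −0.84 for MAPK10 and −0.36 in place of −0.81 for MAP2K3. Of 15 factors that bind immediate early promoters, 11 were tested. SRF, the factor of the CArG box and a member of both lists, was 1.27-fold lower at 24 h (adjusted p = 0.0486), which 12 of 25 settings lost, and no other was called at either time. The medians were 0.12 and −0.04.

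Of 16 feedback inhibitors, 13 were tested and 5 were higher at 24 h, with a median of 0.17 and 0 lower, where 16.5% of all genes were called higher. At 6 d 0 were called in either direction, with a median of 0.18, where 3.93% of all genes were called higher and 6.92% lower. SPRY2, an inhibitor of receptor tyrosine kinase signalling, was 1.77-fold higher (limma adjusted p = 0.00026), and its call was kept in all 25 settings. Its relative SPRY4 was 1.51-fold higher (adjusted p = 0.02). NAB2, a corepressor that binds EGR1, was 1.65-fold higher (log2 0.73, or 0.33 without background correction, adjusted p = 0.0314). DUSP10, a phosphatase of JNK and p38, was 1.79-fold higher (log2 0.84, or 0.25 without background correction, adjusted p = 0.0249), and the last call was that of NAB1. Calls of SPRY4, NAB2 and DUSP10 were lost in 7 of 25, 5 of 25 and 8 of 24 settings. DUSP10 passed the detection filter through the vorinostat groups alone, where it was high, and at 24 h only 1 of 3 DMSO arrays detected it.

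Known AP-1 target genes moved in both directions. Of 15, 9 were tested, with 4 higher and 1 lower at 24 h (median 0.23) and 2 higher and 3 lower at 6 d (median −0.01). The same calls took in 16.5% and 11.1% of all genes at 24 h, and 3.93% and 6.92% at 6 d. MMP9, a matrix protease, was at least 5.41-fold higher with vorinostat at 24 h (limma adjusted p = 3.48e-07) and at least 3.3-fold lower at 6 d (adjusted p = 0.000159). Its mean level was 4.15 with DMSO and 6.87 with vorinostat at 24 h, and 6.16 with DMSO and 4.12 with vorinostat at 6 d. Without background correction the log2 changes of MMP9 were 1.17 and −0.85 in place of 2.72 and −2.04, and those of HMOX1 were 0.25 and −0.32 in place of 0.83 and −1.08, with the calls kept. HMOX1, the heme oxygenase, was at least 1.78-fold higher at 24 h (adjusted p = 0.00837) and at least 1.98-fold lower at 6 d (adjusted p = 0.00859). Scaling by medians of detected probes lost the HMOX1 call at 24 h (log2 change 0.31, limma adjusted p = 0.303). LGALS1, a galectin, was 2.1-fold higher and then 1.69-fold lower (adjusted p = 5.75e-05 and 0.00628). TIMP1, an inhibitor of matrix proteases, went the other way, 1.97-fold lower at 24 h (adjusted p = 5.77e-05) and 1.53-fold higher at 6 d (adjusted p = 0.0125). CCND1, the cyclin D1 gene, named after its values were seen, was higher at both times, 1.6-fold (adjusted p = 0.00257) and 1.61-fold (adjusted p = 0.0124). MMP9 and HMOX1 passed the detection filter through the groups in which they were high. With the methods' test per gene, 0 genes of this list were called at 6 d, as was the case for all genes. Leaving out vorinostat replicate 2 at 6 d lost the 6 d calls of HMOX1, LGALS1 and TIMP1.

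**Figure D4:**
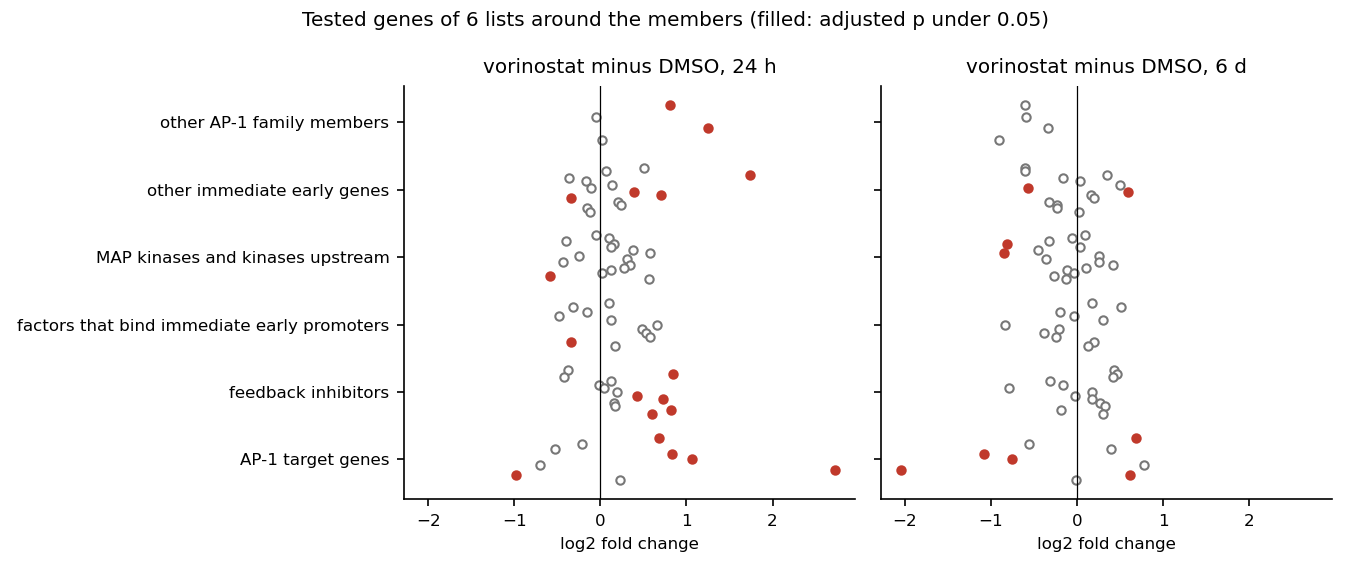
Log2 fold change (x axis) of each tested gene in 6 lists around the members, for vorinostat against DMSO at 24 h and at 6 d. Each point is a gene, filled where the adjusted p was under 0.05. At 24 h the 5 filled feedback inhibitors all lie right of 0, and among AP-1 target genes MMP9 lies at 2.72 at 24 h and at −2.04 at 6 d.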

How the data were processed

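Total RNA of SK-N-BE(2)-C cells was labelled with biotin and hybridized to Illumina HT-12 v4 arrays. One table the authors deposited holds the intensity of each probe before normalization and background subtraction, with a detection p-value. The other is a table of intensities normalized in BeadStudio. Which method it applied is not given in the sources used here. Array medians in the latter were 107 to 112. All 48107 probes were paired between both tables by their values, which gave 30113 probes with 1 gene in the platform annotation, 8 with several and 17986 with none. Of the named probes 30074 matched a RefSeq gene.

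Intensities were corrected by normexp with detection p-values (offset 16), quantile normalized and taken as log2. Each gene was read from its brightest probe among those that all arrays of some group detected. Probes whose detection p exceeded 0.9 gave each array's background as their median (97 to 101). All 4 groups were fitted together with lmFit and eBayes with trend in limma 3.58.1 (R 4.3.3), and p-values were adjusted by Benjamini-Hochberg. For a gene detected on all arrays of one group and on 0 of the other, the fold is a lower bound, taken per array of the dim group against its faintest detected probe or the gene's own signal, whichever was higher. Promoters were searched and figures drawn in Python 3.11.15 with matplotlib 3.10.9.

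Each array detected 15947 to 18696 probes. Precision is limited by how few arrays there were. On simulated arrays with 200 changed genes in each of 6 runs (at least 9283 genes), 27.3%, 84.8% and 98.9% of log2 changes of 0.5, 1 and 2 were recovered at 24 h, and 22.6%, 75.3% and 97.8% at 6 d. Of the calls, 5.22% and 4.28% were false. The simulation held no effect of the chip on single genes and fewer changed genes than were called at either time. These shares therefore do not measure the false calls in the data. Changed genes were drawn only from probes further above background than those of FOS, FOSL2 and JUNB, and recovery was counted among tested genes. The rates therefore do not cover such dim probes. Groups and replicate numbers came from sample titles, and chips from the number that ends each array's name. The descriptions of DMSO 6 d replicate 3 and vorinostat 6 d replicate 2 open with another number. No array titled vorinostat 6 d replicate 1 was among the 11 samples. Deviations of arrays with the same number had r across genes of 0.109, 0.195 and 0.246 at 24 h, and of 0.0846 and 0.1 at 6 d. Arrays with different numbers were not compared, so these values do not show whether the number pairs the arrays. The main fit held no replicate block. The members and lists were chosen with earlier results of these data known. All members are named, and of each list up to 4 called genes with the largest change. SRF is in 2 lists. Alternatives were another table, background, offset, scaling, filter, probe rule, test and fit, a replicate block and each array left out. Scaling by medians of detected probes was added after the data were seen, since medians over all probes lie near the background.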

Additional observations from a re-analysis of the deposited data

Results flagged for a closer look

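The vorinostat change of EGR1 differed between the times in a test of the difference itself (6 d minus 24 h −2.14 on the log2 scale, SE 0.31, limma adjusted p = 9.25e-05). The change was 1.54 at 24 h, higher on 3 of 3 vorinostat arrays, and −0.60 at 6 d, where the groups overlapped. The JUN change differed the other way (0.86, SE 0.21, adjusted p = 0.00484), with 0.04 at 24 h and 0.91 at 6 d, higher on 2 of 2 vorinostat arrays. Each time was run on its own chips, and the cause was not tested.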

How the results depend on the processing

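Over the alternatives, 869 of 953 recomputed log2 changes of members and 441 of 566 of list genes kept their direction and call. The EGR1 calls at 24 h (25 settings) and between the times (23 settings) were kept throughout. With scaling by medians of all probes the median log2 change of all genes became 0.658 at 24 h, −0.312 at 6 d, −0.971 between the times, 0.414 for DMSO and −0.544 for vorinostat at 6 d against 24 h, and 6961 genes were called higher and 60 lower at 24 h, in place of 1701 and 1147. Against those shifts, it reversed JUND (0.50), IER2 (0.31), RPS6KA4 (0.12) and SRF (0.39) at 24 h, FOSL2 (−0.02) at 6 d, JUN (−0.25), JUND (−0.41) and IER2 (−0.75) between the times, JUND with DMSO over time (0.33), and JUN (−0.41), JUNB (−0.24), JUND (−0.08) and IER2 (−0.06) with vorinostat over time. Scaling by medians of detected probes, chosen after seeing the data, gave 1281 higher and 1764 lower at 24 h. It reversed FOS (−0.04) and FOSL2 (−0.15) at 24 h, FOS (0.29) at 6 d, FOS (0.33), FOSL2 (0.48) and JUNB (0.12) between the times, FOS (−0.19) and FOSL2 (−0.22) with DMSO over time, and FOS (0.14) and FOSL2 (0.26) with vorinostat over time. At 6 d, the change of FOSL2 was −0.03 with background from probes near the centre and −0.01 with an offset of 50.

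Of the members, 2 were called at 24 h, and this became 6 with medians of all probes and 1 with medians of detected probes, an offset of 50, detection on every array or the replicate block. The 1 call at 6 d became 2 with medians of all probes (EGR1 and IER5), 2 with medians of detected probes (JUN and JUND) and 0 with the methods' test per gene. That test called 0 of 10323 genes at 6 d. Between the times, 2 members were called. JUND was added in the authors' table (0.40, limma adjusted p = 0.0312) and with medians of detected probes (0.66, adjusted p = 0.00489). Medians of all probes lost JUN and added JUNB (−0.95) and IER5 (−1.49). With DMSO over time the 2 calls became 4 with medians of all probes and 0 with the methods' test. With vorinostat over time the 1 call became 2 with medians of all probes and 0 without the filter on dim probes, without the intensity trend or with the methods' test. With single arrays left out, the numbers of calls were 1 to 3 at 24 h, 1 to 3 at 6 d, 2 to 3 between the times, 2 to 3 with DMSO over time and 0 to 1 with vorinostat over time. A vorinostat array left alone at 6 d was assumed to vary like the other groups. Direction turned within the ranges of JUN (−0.03 to 0.09) and IER5 (−0.09 to 0.11) at 24 h, FOS (−0.30 to 0.23) and FOSL2 (−0.21 to 0.39) at 6 d, JUNB (−0.63 to 0.05) between the times, FOSL2 (−0.15 to 0.47) and JUND (−0.08 to 0.06) with DMSO over time, and EGR1 (−0.14 to 0.06) and IER5 (−0.35 to 0.09) with vorinostat over time.

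The replicate block, which takes arrays of the same number as pairs, lost FOS at 24 h (adjusted p = 0.0563 from limma). At 6 d, where the arrays share only a number, it turned FOS (0.18) and FOSL2 (−0.12). It changed no other call of a member in these comparisons. In the list of MAP kinases it moved the calls from 1 to 3 at 24 h and from 2 to 0 at 6 d. Over all 25 alternatives, the calls at 24 h and at 6 d ran from 0 to 3 and 0 to 2 among other AP-1 family genes, from 1 to 9 and 0 to 3 among other immediate early genes, from 0 to 12 and 0 to 5 among MAP kinases, from 0 to 8 and 0 to 3 among promoter factors, from 1 to 9 and 0 to 1 among feedback inhibitors, and from 3 to 6 and 0 to 6 among AP-1 target genes. The 3 promoter factors came without vorinostat replicate 3 at 6 d. The cause was not tested for any of these changes. FOS and FOSL2 lay near the background, where small differences between arrays are not measurable, and for FOSB and EGR3 a change below detection cannot be seen.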
